A study of Mus musculus with 14 samples.

Results

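Fibroblasts that received the constitutively active TAZ mutant TAZ-4SA together with GHMT on soft hydrogels were profiled on 2 of the 14 Clariom S Mouse arrays of the series. GHMT is the cardiac reprogramming cocktail of Gata4, Hand2, Mef2c and Tbx5, delivered here by retrovirus to mouse embryonic fibroblasts (MEFs) to turn them toward induced cardiomyocytes. Each of the 7 groups had 2 arrays, stated to be independent biological samples. The array of a sample lists 22206 features, of which 19572 carry a single gene symbol. The values described are those of the 19518 single-symbol features (19486 different symbols) with a TAZ-4SA value, and 54 further single-symbol features had none. GHMT/TAZ-4SA denotes GHMT and TAZ-4SA on a soft 8 kPa hydrogel, GHMT/YAP-5SA denotes GHMT and the corresponding active YAP mutant YAP-5SA on the same gel, GHMT/8 kPa denotes GHMT alone on 8 kPa, and GHMT/126 kPa denotes GHMT alone on a stiff 126 kPa hydrogel. All of these cells carried GHMT, the mutants were delivered by retrovirus too, and RNA was taken 2 weeks after transduction. Every culture was a mixture of cells that reprogrammed to different degrees, and each array reads the mixture.

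YAP and TAZ, the products of Yap1 and Wwtr1, are transcriptional coactivators. They lack a DNA-binding domain and act in the nucleus mainly through the TEAD transcription factors. On stiff matrices or under mechanical tension they gather in the nucleus, whereas the Hippo kinases LATS1 and LATS2 phosphorylate them on serines that hold them in the cytoplasm or mark them for degradation. In the SA mutants such serines are replaced by alanine, so that these inhibitory phosphorylations are lost. In fibroblasts, YAP/TAZ activity is known for its link to matrix production and to genes such as Ccn1, Ccn2 and Ankrd1.

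Each deposited value is a log2 ratio, where 1 is a 2-fold difference. In the set that holds GHMT/8 kPa, the GHMT/126 kPa arrays average to 0 in every feature, so 0 there is the mean of GHMT/126 kPa. The set of GHMT/TAZ-4SA and GHMT/YAP-5SA has its own 0, and what that reference was is not given in the sources used here. GHMT/126 kPa is a likely reference, but this was not established. Values of GHMT/TAZ-4SA against 0 are therefore a description, with no test. The exception is the difference between GHMT/TAZ-4SA and GHMT/YAP-5SA, in which a common reference cancels, and which was tested with limma over all features. Over the named features, the medians of the TAZ-4SA arrays were 0.03 and 0.04, and the median size of the difference between them was 0.148.

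The RNA gave no sign of the transgene. Wwtr1, which encodes TAZ, had log2 ratios of 0.11 and 0.08 in GHMT/TAZ-4SA, against 0.31 and 0.14 in GHMT/YAP-5SA. Yap1 had -0.05 and -0.26 in GHMT/TAZ-4SA, and 0.24 and 0.06 in GHMT/YAP-5SA. Whether the Wwtr1 feature reads the transgene is not given in the sources used here, so the group label could not be checked at this level. The 4 reprogramming factors lay close to 0. Gata4 had -0.31 and -0.25, Mef2c had -0.47 and -0.36, Tbx5 had -0.03 and 0.01 and Hand2 had -0.0035 and 0.04 in GHMT/TAZ-4SA. All 4 were below both GHMT/8 kPa arrays in both TAZ-4SA arrays, a pattern shown by 29.1% of the named features, and none differed from GHMT/YAP-5SA past the test.

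Of the 19518 named features, 213 (1.09%) had a TAZ-4SA mean at least 2-fold above the reference and 405 (2.08%) at least 2-fold below it. With both arrays required to pass, the counts were 161 (0.825%) higher and 327 (1.68%) lower. The mean was above 0 for 56.6% of the features and below 0 for 43.4%. The far ends of the distribution held different kinds of genes, and the highest and lowest 15 are plotted by array.

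**Figure D1:**
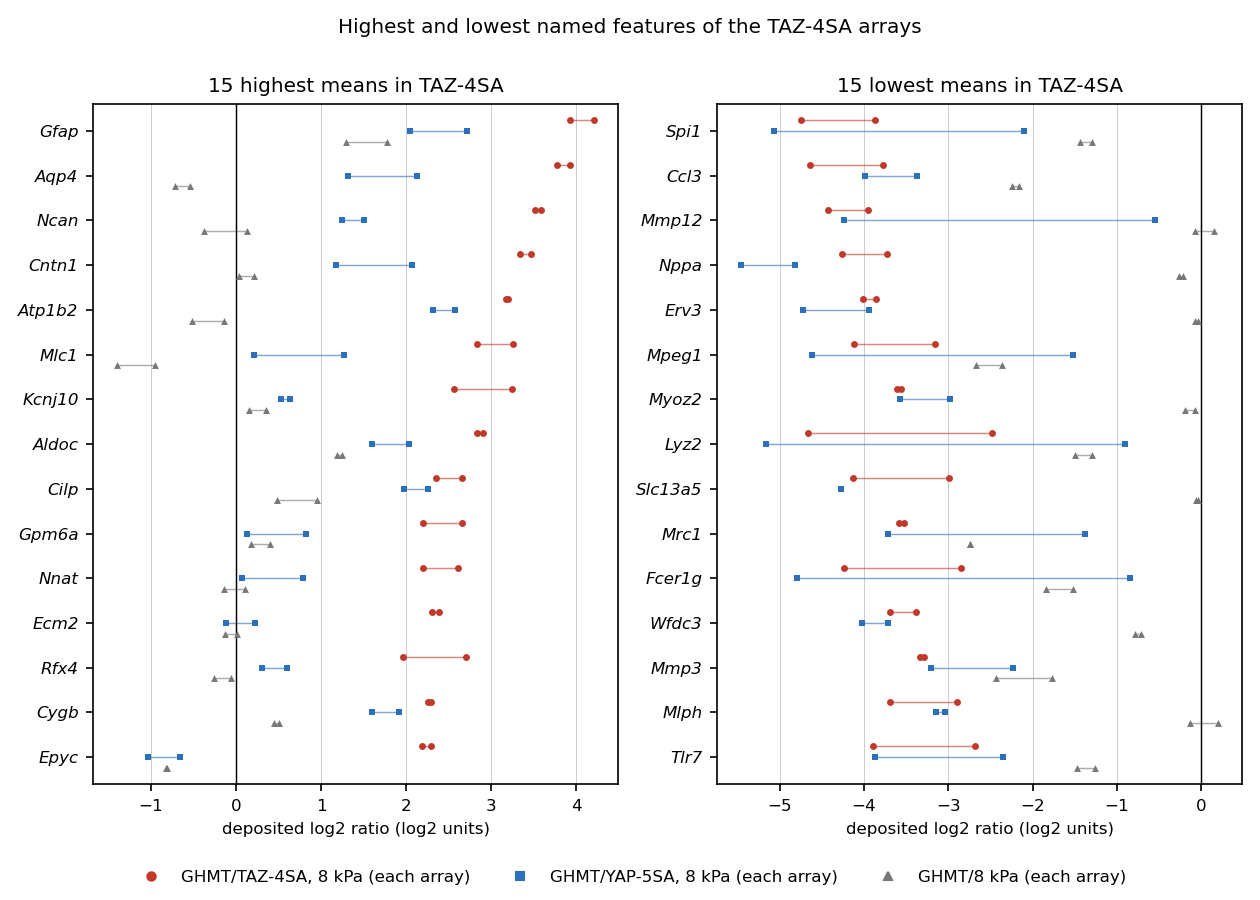
Deposited log2 ratio (horizontal axis, log2 units) of the 15 named features with the highest (left) and the 15 with the lowest (right) mean in GHMT/TAZ-4SA, with each array of GHMT/TAZ-4SA (circles), GHMT/YAP-5SA (squares) and GHMT/8 kPa (triangles), and a line joining the 2 arrays of a group. The TAZ-4SA arrays of Gfap sit at 3.93 and 4.21, to the right of both other groups, and those of Nppa at -3.73 and -4.26, far from the GHMT/8 kPa arrays at -0.22 and -0.26.

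The highest mean belonged to Gfap, which encodes the intermediate filament protein that marks astrocytes, the glial cells of the brain. Its log2 ratios were 3.93 and 4.21 in GHMT/TAZ-4SA, 2.71 and 2.04 in GHMT/YAP-5SA and 1.29 and 1.77 in GHMT/8 kPa. The 3 groups did not overlap, and the mean in GHMT/TAZ-4SA was 16.8-fold above the reference. Next came Aqp4, the water channel of astrocyte end-feet, with 3.78 and 3.92 in GHMT/TAZ-4SA, 2.13 and 1.31 in GHMT/YAP-5SA and -0.72 and -0.54 in GHMT/8 kPa. In rank, Aqp4 was 2 from the top in GHMT/TAZ-4SA and 19022 of 19518 in GHMT/8 kPa. Ncan, which encodes the brain proteoglycan neurocan, had 3.58 and 3.51 in GHMT/TAZ-4SA, against 1.24 and 1.50 in GHMT/YAP-5SA and -0.38 and 0.13 in GHMT/8 kPa. It was rank 3 in GHMT/TAZ-4SA and rank 14381 in GHMT/8 kPa.

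Several others of the 15 highest are also known from neural tissue. Cntn1, a neuronal adhesion molecule, had 3.33 and 3.46 in GHMT/TAZ-4SA, against 2.06 and 1.17 in GHMT/YAP-5SA. Atp1b2, a subunit of the sodium-potassium pump found in glia, had 3.17 and 3.19 in GHMT/TAZ-4SA, against 2.58 and 2.31 in GHMT/YAP-5SA and -0.15 and -0.51 in GHMT/8 kPa. Mlc1, a membrane protein of astrocytes, had 2.84 and 3.26 in GHMT/TAZ-4SA, against 1.27 and 0.21 in GHMT/YAP-5SA and -1.40 and -0.95 in GHMT/8 kPa. Kcnj10, the inward rectifier potassium channel of glial cells, and Aldoc, the brain form of the glycolytic enzyme aldolase, followed with means of 2.90 and 2.87. Gpm6a, a membrane glycoprotein of neurons, Nnat, which encodes neuronatin, and the transcription factor Rfx4 had means of 2.42, 2.40 and 2.33. The remaining 4 of the 15 were Cilp, Ecm2 and Epyc, which encode matrix proteins (means of 2.50, 2.34 and 2.24), and Cygb, which encodes cytoglobin (2.27).

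Because of these genes, a list of 25 astrocyte-associated genes was drawn up after their values were seen, from general knowledge, and it is described without a test. Of its 24 measured features, 19 were above 0 in GHMT/TAZ-4SA, and 11 of them at least 2-fold, beside 56.6% and 1.09% of all named features. The median was 0.93 in GHMT/TAZ-4SA, against 0.27 in GHMT/YAP-5SA and -0.12 in GHMT/8 kPa, where 11, 5 and 2 features were at least 2-fold above the reference of their set. The genes that prompted the list, among them Gfap, Aqp4, Ncan, Atp1b2, Mlc1, Kcnj10 and Aldoc, are counted in it and in the 11. Its counts, its TAZ-4SA median and its gaps to the other groups therefore follow in part from that choice. The shares of all named features are for the same reason no yardstick for the list. Not every marker took part. Clu was lowest of the list, with -0.86 and -0.76 in GHMT/TAZ-4SA, and Ntsr2 and Fgfr3 had means of -0.08 and -0.05. S100b, a calcium-binding protein of astrocytes and Schwann cells, had -0.15 in both TAZ-4SA arrays, and Gjb6, a gap junction protein of astrocytes, had -0.25 and 0.07. Aldh1l1, a folate enzyme widely used as an astrocyte marker, had 0.54 and 1.03. The glutamate transporter genes Slc1a2 (1.94 and 2.27) and Slc1a3 (1.53 and 1.71), the adhesion gene Hepacam (1.64 and 1.91) and the fatty acid binding protein gene Fabp7 (1.84 and 1.84) were at least 2-fold higher. The neuronal and Schwann cell list had a median of -0.04 and no feature of 9 past 2-fold in GHMT/TAZ-4SA. It was not drawn up from the highest genes and does not hold Cntn1, Gpm6a or Nnat. The neuronal and astrocyte lists can therefore not be set against each other. Fewer cells of a type and less RNA per cell cannot be told apart in bulk RNA, here or for any group of markers below.

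Among the 15 lowest, Spi1, Ccl3, Mmp12, Mpeg1, Lyz2, Mrc1, Fcer1g and Tlr7 are known from macrophages and other myeloid cells, and Nppa and Myoz2 from heart muscle. The others were Erv3, Slc13a5, Wfdc3, Mmp3 and Mlph. Spi1, the gene of the myeloid transcription factor PU.1, had the lowest mean, with -3.87 and -4.75 in GHMT/TAZ-4SA, against -5.06 and -2.11 in GHMT/YAP-5SA and -1.29 and -1.44 in GHMT/8 kPa. The GHMT/YAP-5SA arrays were far apart. The chemokine gene Ccl3 had -3.77 and -4.64 in GHMT/TAZ-4SA, and Mmp12, which encodes macrophage elastase, had -3.96 and -4.42. In GHMT/8 kPa, Ccl3 was also low (-2.24 and -2.17), whereas Mmp12 stood near 0 (-0.08 and 0.15).

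Of the 20 features of the macrophage and leukocyte list, 18 were at least 2-fold below the reference in GHMT/TAZ-4SA and all 20 below 0. The median was -2.48 in GHMT/TAZ-4SA, -1.93 in GHMT/YAP-5SA and -1.34 in GHMT/8 kPa. By array, the medians were -2.16 and -2.99 in GHMT/TAZ-4SA, -2.75 and -0.95 in GHMT/YAP-5SA and -1.32 and -1.42 in GHMT/8 kPa. Replicate 2 of GHMT/YAP-5SA was thus the least low of the mutant arrays. Mrc1, the macrophage mannose receptor, had -3.58 and -3.52 in GHMT/TAZ-4SA, against -3.72 and -1.38 in GHMT/YAP-5SA and -2.74 and -2.74 in GHMT/8 kPa. Lyz2, the myeloid lysozyme, ranged most, with -2.48 and -4.66 in GHMT/TAZ-4SA against -5.16 and -0.90 in GHMT/YAP-5SA. Itgb2, the integrin chain of leukocytes, had -0.91 and -1.39 in GHMT/TAZ-4SA and -1.25 and -1.19 in GHMT/8 kPa, which overlapped. Within the list, 12 features were below both GHMT/8 kPa arrays in both TAZ-4SA arrays and 2 above. Over all named features, 29.1% were below and 28.3% above in this way, and 2.08% had a mean at least 2-fold lower. No feature of the list passed the test between GHMT/TAZ-4SA and GHMT/YAP-5SA.

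Cardiac genes made up the second low group. Of the 27 features of the cardiac sarcomere list, the contractile and structural proteins of heart muscle, 25 were below 0 in GHMT/TAZ-4SA and 19 at least 2-fold. The median was -1.17 in GHMT/TAZ-4SA, -1.88 in GHMT/YAP-5SA and -0.01 in GHMT/8 kPa. In both TAZ-4SA arrays, 25 of the 27 features were below both GHMT/8 kPa arrays. Over all named features, 29.1% were below both GHMT/8 kPa arrays in this way, and 2.08% had a mean at least 2-fold lower. Nppa, which encodes atrial natriuretic peptide and belongs to the list of cardiac transcription factors and hormones, was lowest among cardiac genes, with -3.73 and -4.26 in GHMT/TAZ-4SA, -5.46 and -4.82 in GHMT/YAP-5SA and -0.22 and -0.26 in GHMT/8 kPa. Nppb, its B-type relative, had -2.68 and -2.88 in GHMT/TAZ-4SA. Myoz2, a Z-disc protein, had -3.56 and -3.61 in GHMT/TAZ-4SA, against -0.19 and -0.08 in GHMT/8 kPa, and Csrp3, the muscle LIM protein, had -3.06 and -2.87 in GHMT/TAZ-4SA. Tnnt2, cardiac troponin T and a common readout of reprogramming, was less low, with -0.53 and -0.58 in GHMT/TAZ-4SA, -0.82 and -1.27 in GHMT/YAP-5SA and 0.10 and 0.05 in GHMT/8 kPa. Myl2 (mean of -0.10), the ventricular regulatory light chain, lay near 0 in GHMT/TAZ-4SA, and Ankrd23 and Myl3 lay above it.

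**Figure D2:**
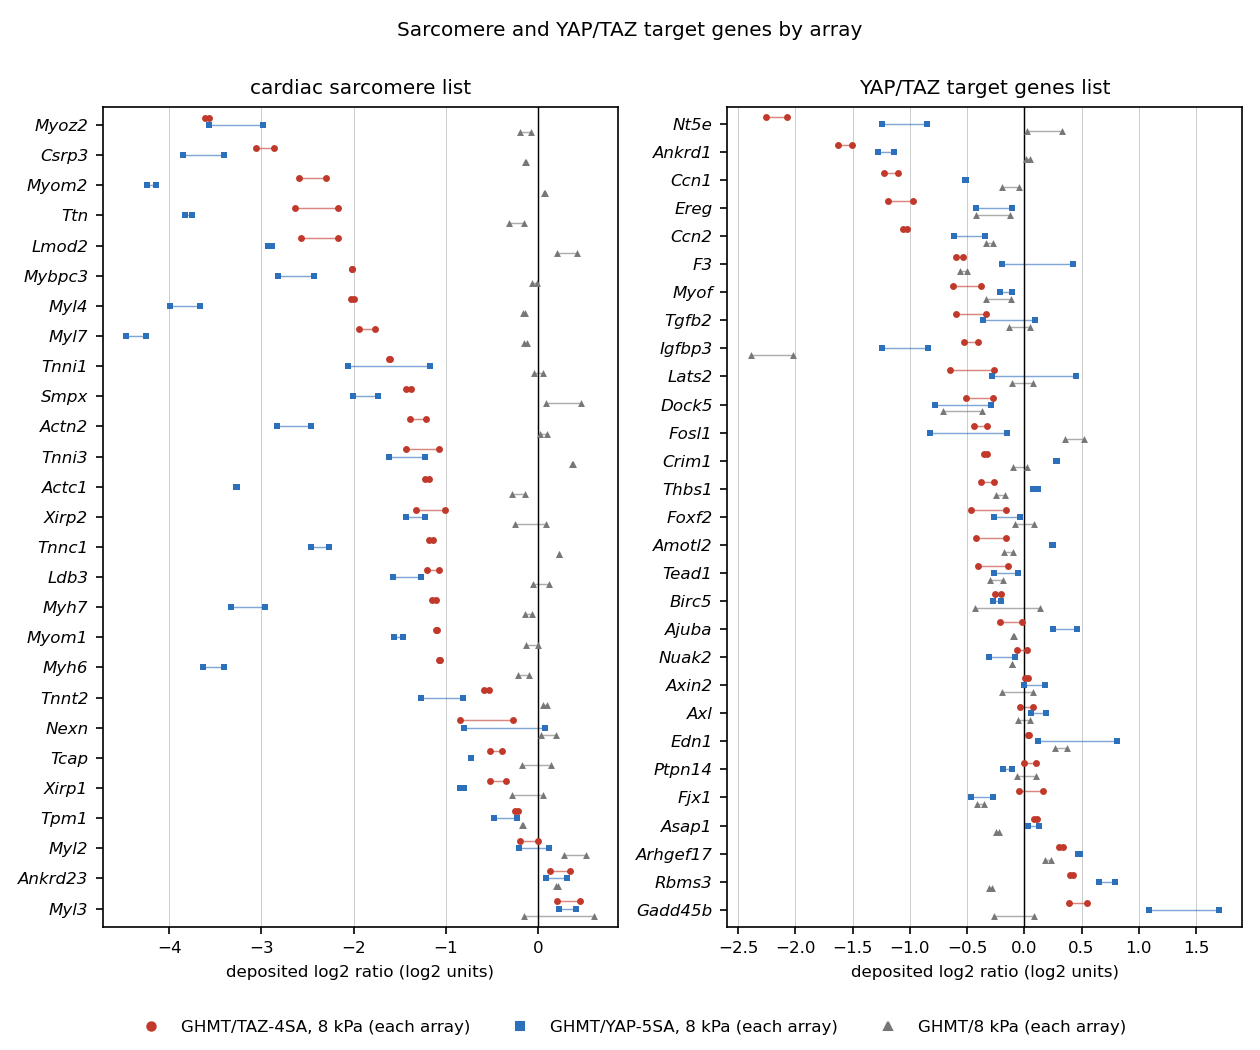
Deposited log2 ratio (horizontal axis, log2 units) of every feature of the cardiac sarcomere list (left) and the YAP/TAZ target list (right), ordered by the mean in GHMT/TAZ-4SA, with each array of GHMT/TAZ-4SA (circles), GHMT/YAP-5SA (squares) and GHMT/8 kPa (triangles). Most sarcomere genes show TAZ-4SA arrays between the lower YAP-5SA arrays and the GHMT/8 kPa arrays near 0, as for Myh6 at -1.07 and -1.06, and among the targets Nt5e, Ankrd1, Ccn1, Ereg and Ccn2 lie at least 2-fold below the reference in mean.

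Other heart genes lay closer to the reference. In the list of calcium handling and channel genes, 13 of 23 features were below 0, but Casq2 alone was at least 2-fold lower (calsequestrin of the sarcoplasmic reticulum, -1.35 and -1.74 in GHMT/TAZ-4SA). Jph2, which ties that reticulum to the cell membrane, had -1.04 and -0.95, and Ryr2, the calcium release channel, had -0.77 and -0.86. Hcn4, the pacemaker channel, was above 0 with 0.30 and 0.40 in GHMT/TAZ-4SA. Among the transcription factors, Myocd (-1.23 and -0.76), the cofactor of SRF in muscle, was low, while Nkx2-5 (0.14 and -0.27), Gata6 (0.25 and 0.46) and Hopx (0.40 and 0.81) were not. In the skeletal muscle list, 15 of 20 features were below 0, and the 2 that were at least 2-fold lower were Acta1, skeletal alpha-actin, with -2.29 and -2.26, and Tnnt3, fast troponin T, with -1.99 and -2.00. Smooth muscle and myofibroblast genes had a median of -0.42, with 11 of 14 features below 0. Over all named features, 43.4% were below 0. Des, which encodes the muscle intermediate filament desmin, had -1.90 and -1.79 in GHMT/TAZ-4SA, against -0.43 and -0.64 in GHMT/YAP-5SA and -0.37 and -0.39 in GHMT/8 kPa, whereas Acta2, smooth muscle actin, had -0.14 and -0.29 and Mylk, myosin light chain kinase, had 1.32 and 1.31 in GHMT/TAZ-4SA.

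The genes usually read as YAP/TAZ targets lay mostly below 0 in GHMT/TAZ-4SA. Of 29 features of the target list, 20 were below 0, beside 43.4% of all named features. Of the 29, 5 were at least 2-fold below (2.08% of all named features) and none at least 2-fold above. The median was -0.31 in GHMT/TAZ-4SA, -0.15 in GHMT/YAP-5SA and -0.11 in GHMT/8 kPa. Ccn1 and Ccn2 encode secreted matricellular proteins. Ccn1 had -1.10 and -1.23 in GHMT/TAZ-4SA, -0.52 and -0.51 in GHMT/YAP-5SA and -0.05 and -0.20 in GHMT/8 kPa, and Ccn2 had -1.03 and -1.06, -0.62 and -0.34, and -0.28 and -0.34 in the same groups. Ankrd1, a stretch-responsive protein of muscle nuclei and the sarcomere, had -1.50 and -1.63 in GHMT/TAZ-4SA, against -1.14 and -1.28 in GHMT/YAP-5SA and 0.05 and 0.02 in GHMT/8 kPa. Nt5e, the ecto-enzyme CD73, was lowest of the list with -2.07 and -2.26 in GHMT/TAZ-4SA. For all 4 genes both TAZ-4SA arrays lay below the arrays of both other groups, but the difference from GHMT/YAP-5SA did not pass the test (adjusted p = 0.053 from limma for Nt5e, 0.113 for Ccn1, 0.199 for Ccn2 and 0.354 for Ankrd1). Lats2 (-0.27 and -0.65) and Amotl2 (-0.16 and -0.42), Hippo pathway members that are themselves induced by YAP/TAZ, were also below 0, and Gadd45b (0.55 and 0.39), a stress-induced protein, was highest. Axl (0.08 and -0.04), a receptor tyrosine kinase, stayed near 0. In the list of YAP, TAZ and TEAD factors, the means of the 9 features lay within 2-fold of the reference, and the same held for the 17 Hippo kinases and regulators, where Stk4, an upstream kinase, was lowest (-0.59 and -0.38) and Wwc1 highest (0.60 and 0.92).

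Upstream sequences are shown for genes on which these comparisons turn, with the 250 bases before the annotated start (RefSeq, GRCm38.p6, minus strand of the genome in each case, printed 5′ to 3′ along the gene). Capitals mark the hexamer CATTCC, read on either strand, which is the core of the site that TEAD factors bind, and for Actc1 the CArG box that SRF binds. Ccn1 lies at chr3:145649986-145650235, Ankrd1 at chr19:36119845-36120094, Gfap at chr11:102897201-102897450, Myh6 at chr14:54966608-54966857, Myl7 at chr11:5898783-5899032 and Actc1 at chr2:114052876-114053125.
Ccn1: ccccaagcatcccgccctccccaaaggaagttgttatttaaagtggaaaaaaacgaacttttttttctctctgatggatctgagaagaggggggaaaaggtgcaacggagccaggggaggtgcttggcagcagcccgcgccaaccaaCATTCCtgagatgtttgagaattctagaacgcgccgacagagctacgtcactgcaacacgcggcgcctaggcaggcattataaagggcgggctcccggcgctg
Ankrd1: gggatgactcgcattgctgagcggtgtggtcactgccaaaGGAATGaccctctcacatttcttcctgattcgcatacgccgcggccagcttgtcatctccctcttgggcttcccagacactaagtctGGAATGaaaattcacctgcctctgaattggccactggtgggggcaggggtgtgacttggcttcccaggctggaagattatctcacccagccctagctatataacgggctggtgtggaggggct
Gfap: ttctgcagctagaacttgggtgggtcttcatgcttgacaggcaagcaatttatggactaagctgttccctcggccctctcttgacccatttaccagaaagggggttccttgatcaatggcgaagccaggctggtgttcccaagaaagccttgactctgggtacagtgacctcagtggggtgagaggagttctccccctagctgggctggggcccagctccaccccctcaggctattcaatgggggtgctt
Myh6: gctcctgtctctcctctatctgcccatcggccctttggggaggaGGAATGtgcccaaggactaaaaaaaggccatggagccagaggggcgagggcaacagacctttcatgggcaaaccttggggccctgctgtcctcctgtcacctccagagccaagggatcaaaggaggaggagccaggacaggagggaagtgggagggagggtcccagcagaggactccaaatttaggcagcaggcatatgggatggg
Myl7: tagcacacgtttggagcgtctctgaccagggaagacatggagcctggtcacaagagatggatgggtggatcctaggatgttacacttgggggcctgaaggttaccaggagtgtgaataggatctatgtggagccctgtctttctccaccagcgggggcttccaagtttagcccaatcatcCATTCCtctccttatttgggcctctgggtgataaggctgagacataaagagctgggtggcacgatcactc
Actc1: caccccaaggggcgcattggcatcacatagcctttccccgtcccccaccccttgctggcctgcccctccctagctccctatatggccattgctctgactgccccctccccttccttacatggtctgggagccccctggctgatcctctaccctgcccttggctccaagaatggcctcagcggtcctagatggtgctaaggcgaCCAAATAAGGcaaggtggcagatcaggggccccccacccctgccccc

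Ccn1 held the hexamer once, 103 bases upstream of the start, and Ankrd1 held it 210 and 123 bases upstream. Myh6 and Myl7, the sarcomere genes with the largest difference between the mutants, held it 206 and 70 bases upstream, and Gfap did not hold it in this window. The CArG box of Actc1 began 47 bases upstream. Myl7 also held a CArG box (ccttatttgg), which is left in lower case and lies downstream of its hexamer. A window was found for 15683 of the 19486 gene symbols, and a gene with several windows counted once if any held the motif. The hexamer was in 12.6% of all 32851 windows and in 13.3% of the named genes. It was in 24 of 159 genes (15.1%) at least 2-fold higher and in 57 of 305 (18.7%) at least 2-fold lower in GHMT/TAZ-4SA. By list, it was in 8 of 19 target genes, 8 of 23 sarcomere genes, 5 of 10 smooth muscle genes and 0 of 13 macrophage genes. The CArG box was in 1.47% of all windows and in 1.54% of the named genes. It was in 1 of the 159 higher genes, in 16 of the 305 lower genes and in 5 of 23 sarcomere genes. The 2 motifs can overlap by the final CC of the hexamer. The motif GAGGAAGT, of the type that PU.1 binds, was in 2.44% of all windows and in 2.63% of the named genes. It was in 3 of the higher and in 20 of the lower genes, and in 1 of 13 macrophage genes. TGANTCA, bound by AP-1, was in 6.75% of all windows, in 7.37% of the named genes, in 12 of the higher and in 32 of the lower genes. A match is a stretch of letters and not a measured site.

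**Figure D3:**
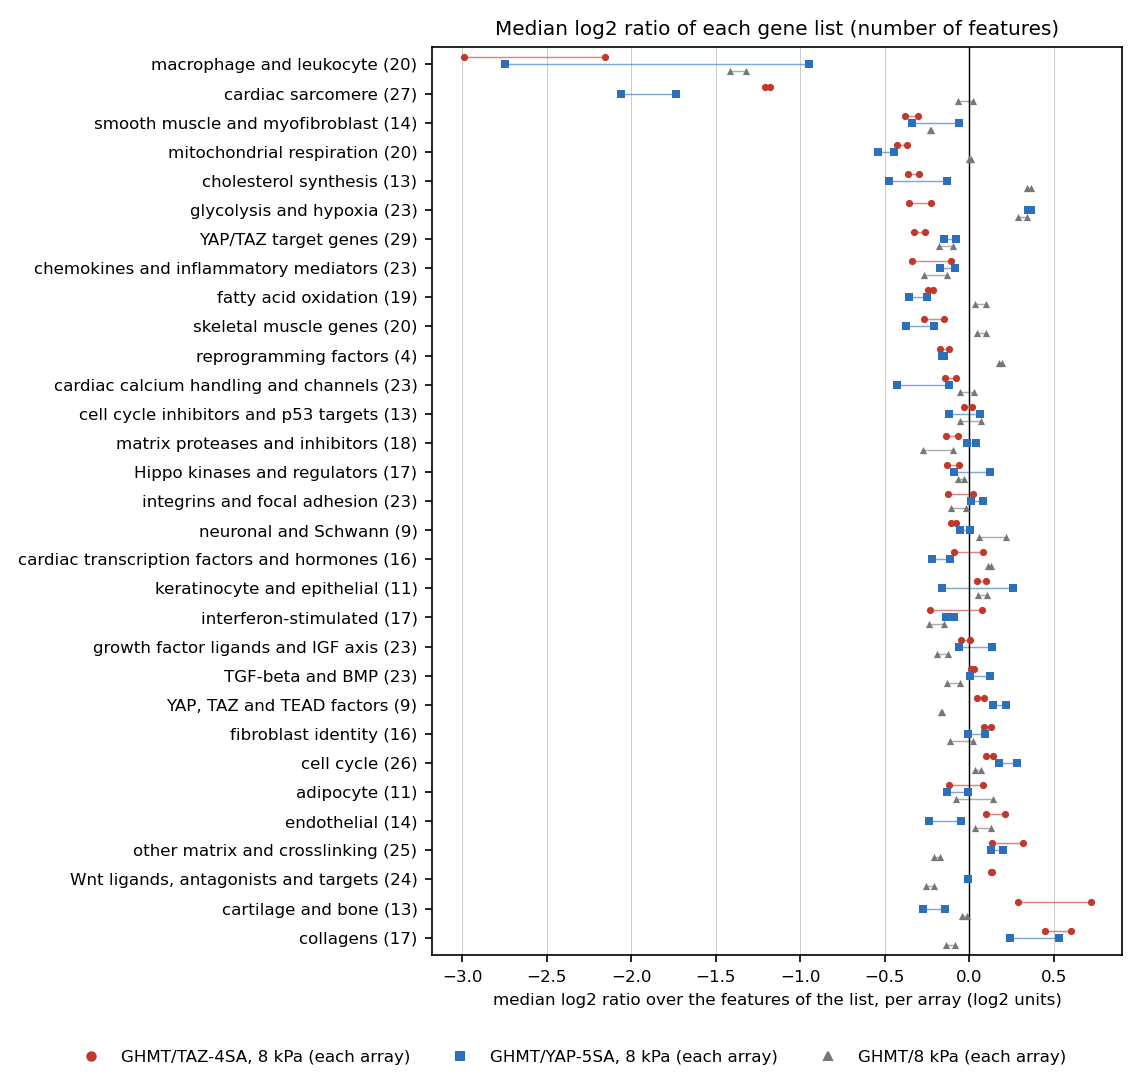
Median log2 ratio (horizontal axis, log2 units) over the features of each gene list, per array, for GHMT/TAZ-4SA (circles), GHMT/YAP-5SA (squares) and GHMT/8 kPa (triangles), with lists ordered by the median of the TAZ-4SA means and the number of features in parentheses. Macrophage genes and sarcomere genes stand far below 0 in GHMT/TAZ-4SA (-2.48 and -1.17 in the median of means), and collagens lie highest (0.57).

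Collagen genes lay on the other side. Of 17 collagen features, 16 were above 0 in GHMT/TAZ-4SA, with a median of 0.57 in GHMT/TAZ-4SA, 0.36 in GHMT/YAP-5SA and -0.18 in GHMT/8 kPa, beside 0.04 over all named features in GHMT/TAZ-4SA. In 15 of the 17, both TAZ-4SA arrays were above both GHMT/8 kPa arrays, a pattern found in 28.3% of the named features. Col6a3 and Col15a1 were at least 2-fold higher, Col6a3 with 1.33 and 1.28 in GHMT/TAZ-4SA, against 1.32 and 1.14 in GHMT/YAP-5SA and 0.47 and 0.61 in GHMT/8 kPa. The fibrillar collagen gene Col1a1 had 0.62 and 0.45 in GHMT/TAZ-4SA, 0.72 and 0.49 in GHMT/YAP-5SA and -0.08 and -0.09 in GHMT/8 kPa. None of the collagens differed between the mutants past the test. Of 25 other matrix and crosslinking features, 16 were above 0, a share close to the 56.6% of all named features, and none was at least 2-fold higher, while 17 were above both GHMT/8 kPa arrays. Eln, which encodes elastin, had 0.87 and 0.64 in GHMT/TAZ-4SA and -1.53 and -1.11 in GHMT/8 kPa, and Fbn2, fibrillin 2, had 0.59 and 0.42 in GHMT/TAZ-4SA and -2.22 and -2.39 in GHMT/8 kPa. Postn, periostin, had -0.07 and -0.46 in GHMT/TAZ-4SA, against -1.67 and -1.68 in GHMT/8 kPa.

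Matrix proteases split. Mmp12, Mmp3 (-3.33 and -3.29, stromelysin 1), Mmp13 (-1.64 and -1.96, a collagenase) and the plasminogen activator gene Plau (-1.32 and -1.37) were at least 2-fold lower, while Mmp2 (0.55 and 0.65) and Mmp14 (0.42 and 0.35) were above 0 and the inhibitor gene Timp4 (1.15 and 1.19) was at least 2-fold higher. Among integrins and focal adhesion genes, Itga6, a laminin receptor chain, was lowest (-1.50 and -1.49) and Itgb8 highest (0.99 and 0.98). Of the 23 features, 12 were below 0, beside 43.4% of all named features. The fibroblast label could not be checked by level, since a ratio carries none. Of 16 fibroblast features, 10 were above 0, a share close to the 56.6% of all named features. In this list, Thy1 had -0.64 and -0.37, Dpt, dermatopontin, -1.33 and -1.74, S100a4 -1.72 and -1.47 and Cd34 1.09 and 1.07 in GHMT/TAZ-4SA. The means of Thy1, Dpt, S100a4 and Cd34 were -0.50, -1.80, -1.45 and 1.70 in GHMT/YAP-5SA. They were -0.34, -1.505, -0.07 and 1.32 in GHMT/8 kPa. The mesenchymal filament gene Vim (-0.02 and -0.10) and the receptor gene Pdgfrb (0.17 and 0.06) lay near 0.

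In the signaling lists, the medians lay close to that of all named features and single members stood out. The TGF-beta and BMP list had a median of 0.01, with Grem1 (-1.11 and -1.24), a BMP antagonist, and the co-receptor gene Tgfbr3 (-1.10 and -0.95) at least 2-fold lower. Grem1 and Tgfbr3 had means of -1.22 and -0.60 in GHMT/YAP-5SA, and -0.43 and -1.26 in GHMT/8 kPa. The Wnt list had a median of 0.19, with 18 of 24 features above 0, beside 56.6% of all named features. Wnt11 had 1.04 and 0.95, and the antagonist genes Wif1 (-1.33 and -1.18) and Dkk2 (-1.68 and -0.80) were low. Wnt11, Wif1 and Dkk2 had means of 2.04, -1.92 and 0.10 in GHMT/YAP-5SA, and 0.12, -0.98 and -0.75 in GHMT/8 kPa. The growth factor list had a median of -0.01, with the EGF-family ligand genes Hbegf (-1.60 and -1.33) and Ereg (-0.97 and -1.20) low and Igfbp4 (1.11 and 0.98) high.

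Genes of energy metabolism were mostly below 0, by small amounts. Of 20 features of the respiratory chain list, 18 were below 0 and 18 below both GHMT/8 kPa arrays, beside 43.4% and 29.1% of all named features. The list had a median of -0.40 in GHMT/TAZ-4SA, -0.50 in GHMT/YAP-5SA and -0.04 in GHMT/8 kPa. Only Cox6a2, the muscle form of a cytochrome c oxidase subunit, was 2-fold lower in mean (-1.01 and -0.99). Among the fatty acid oxidation genes, with a median of -0.22, Fabp3, the heart fatty acid binding protein, had -2.29 and -2.29 and Cpt1b, the muscle carnitine palmitoyltransferase, had -1.38 and -1.24. All 13 cholesterol synthesis features were below both GHMT/8 kPa arrays in both TAZ-4SA arrays, beside 29.1% of the named features. The median of these 13 was -0.36 in GHMT/TAZ-4SA, -0.30 in GHMT/YAP-5SA and 0.35 in GHMT/8 kPa. Cyp51, lanosterol demethylase, had -0.49 and -0.36 in GHMT/TAZ-4SA and 0.90 and 0.58 in GHMT/8 kPa. Cell cycle genes had a median of 0.12 in both GHMT/TAZ-4SA and GHMT/8 kPa, with none of 26 features past 2-fold, and cell cycle inhibitors and p53 targets had a median of -0.07 with none of 13 past 2-fold.

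GHMT/TAZ-4SA was then compared with GHMT/YAP-5SA, on the same gel. The arrays gave no measure of how much of each mutant was present. The comparison is therefore between cultures, and not between the 2 coactivators at a known amount. With limma, 109 of 22127 features (0.493%) were higher in GHMT/TAZ-4SA and 89 (0.402%) lower at an adjusted p under 0.05, and at an unadjusted p under 0.05 the counts were 1548 and 1450. With 2 arrays a group the fit has 2 residual degrees of freedom, and p-values reflect the spread between these cultures only. The counts moved when single arrays were left out, in which case 1 group has a single array that is assumed to vary like the other group. Without replicate 1 of GHMT/YAP-5SA they were 416 higher and 465 lower, without its replicate 2 they were 202 and 162, and without replicate 2 of GHMT/TAZ-4SA they were 68 and 75.

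The sarcomere genes gave the most calls of any list apart from the astrocyte list. In the astrocyte list 10 of 24 features were called higher, in part because it was written around genes high in these TAZ-4SA arrays. Of the 27 sarcomere features, 9 were higher in GHMT/TAZ-4SA than in GHMT/YAP-5SA and none lower. Among all features tested, 0.493% were called higher and 0.402% lower. Myh6, alpha myosin heavy chain, had -1.07 and -1.06 in GHMT/TAZ-4SA and -3.41 and -3.63 in GHMT/YAP-5SA, a difference of 2.46 (SE 0.15, adjusted p = 0.00666 from limma). Myl7, the atrial light chain, had -1.94 and -1.77 in GHMT/TAZ-4SA and -4.25 and -4.47 in GHMT/YAP-5SA, a difference of 2.50 (SE 0.16, adjusted p = 0.00666 from limma). The others were Actc1, Myh7, Myl4, Myom2, Ttn, Actn2 and Tnnc1, with differences between 1.21 and 2.07, and both TAZ-4SA arrays above both YAP-5SA arrays in each. Actn2, sarcomeric alpha-actinin, differed by 1.34 (SE 0.18, adjusted p = 0.0323 from limma). Without replicate 2 of GHMT/TAZ-4SA, Actn2 differed by 1.25, Ttn by 1.16 and Trdn by 1.15, and the calls were lost (adjusted p = 0.0562, 0.0562 and 0.0853 from limma). Tnnt2 differed by 0.49 (SE 0.18, adjusted p = 0.323) and Myoz2 by -0.31 (SE 0.21, adjusted p = 0.577 from limma), so neither passed. Pln, phospholamban, and Trdn, triadin, both regulators of sarcoplasmic calcium, were also higher in GHMT/TAZ-4SA, with Pln at -0.21 and 0.20 and a difference of 1.63 (adjusted p = 0.0219 from limma).

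**Figure D4:**
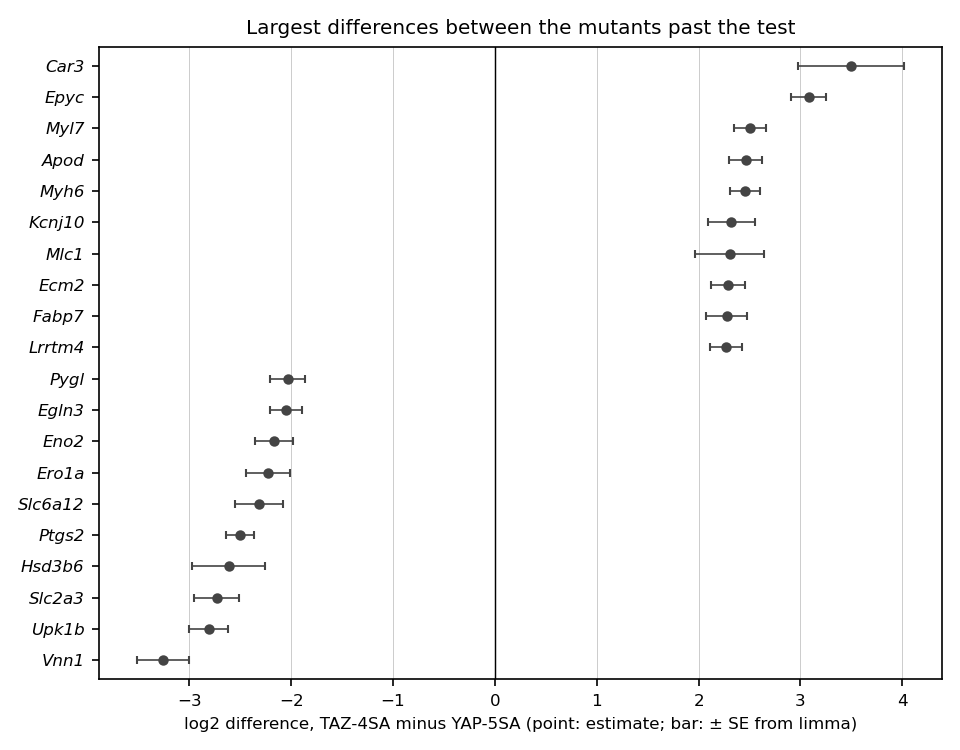
Log2 difference in mean, GHMT/TAZ-4SA minus GHMT/YAP-5SA (horizontal axis, log2 units), for the 10 genes furthest above and the 10 furthest below 0 that passed the limma test and whose groups did not overlap. Points are estimates and bars the SE from limma with 2 arrays a group, from 3.50 for Car3 to -3.26 for Vnn1.

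Of the 15 genes with the highest ratios, Atp1b2, Aldoc, Cilp and Cygb did not pass the test between the mutants (adjusted p = 0.104, 0.0615, 0.406 and 0.242 from limma), and the others did. The 15 were picked for high values in the same TAZ-4SA arrays, so positive differences among them follow in part from that choice. Over all features tested, 0.493% were called higher in GHMT/TAZ-4SA. The difference was 2.17 for Ncan (SE 0.16, adjusted p = 0.0075 from limma), 2.13 for Aqp4 (SE 0.26, adjusted p = 0.0275), 2.32 for Kcnj10 (SE 0.23, adjusted p = 0.0169) and 1.69 for Gfap (SE 0.24, adjusted p = 0.0396 from limma). Epyc, a cartilage proteoglycan, had 2.29 and 2.18 in GHMT/TAZ-4SA and -0.66 and -1.03 in GHMT/YAP-5SA, a difference of 3.08 (SE 0.17, adjusted p = 0.00659 from limma). Sox9, a transcription factor of cartilage and glia, had 0.81 and 0.91 in GHMT/TAZ-4SA and -0.29 and -0.47 in GHMT/YAP-5SA (a difference of 1.24 with adjusted p = 0.0261 from limma, and 1.19 with 0.0532 without replicate 2 of GHMT/TAZ-4SA). Fitted with all 14 arrays, the difference of Gfap was still 1.69 and its adjusted p 0.0599 with limma. The largest difference of all named by the rule was that of Car3, a carbonic anhydrase of muscle and fat, with 1.68 and 1.28 in GHMT/TAZ-4SA and -2.91 and -1.12 in GHMT/YAP-5SA (3.50, SE 0.52, adjusted p = 0.0435 from limma). Apod, a lipocalin that carries lipids, had -1.22 and -0.999 in GHMT/TAZ-4SA and -3.46 and -3.67 in GHMT/YAP-5SA.

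The genes lower in GHMT/TAZ-4SA included Slc2a3 and members of the glycolysis and hypoxia list. Slc2a3, a glucose transporter gene, had -0.60 and -0.27 in GHMT/TAZ-4SA and 2.01 and 2.58 in GHMT/YAP-5SA, a difference of -2.73 (SE 0.22, adjusted p = 0.0109 from limma). Egln3, the prolyl hydroxylase that marks HIF for degradation, had -0.61 and -0.65 in GHMT/TAZ-4SA and 1.28 and 1.56 in GHMT/YAP-5SA (adjusted p = 0.00957 from limma). In the glycolysis and hypoxia list, 5 of 23 features were lower in GHMT/TAZ-4SA (Egln3, Adm, Slc2a1, Bnip3 and Hk2) and 1 higher (Pgam2, the muscle phosphoglycerate mutase). Among all features tested, 0.402% were called lower and 0.493% higher. Without replicate 1 of GHMT/TAZ-4SA, Hk2 differed by -1.12 (adjusted p = 0.0558 from limma), against -1.16 with it. The list had a median of -0.32 in GHMT/TAZ-4SA, 0.30 in GHMT/YAP-5SA and 0.31 in GHMT/8 kPa. Of its 23 features, 18 were below both GHMT/8 kPa arrays in both TAZ-4SA arrays, beside 29.1% of the named features. Vegfa, the angiogenic factor, had 0.25 and 0.05 in GHMT/TAZ-4SA, against 1.91 and 1.68 in GHMT/YAP-5SA and 1.20 and 1.24 in GHMT/8 kPa (adjusted p = 0.0159 from limma for GHMT/TAZ-4SA minus GHMT/YAP-5SA). Oxygen and cell density were not measured in these files, and their part in the difference was not tested.

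**Figure D5:**
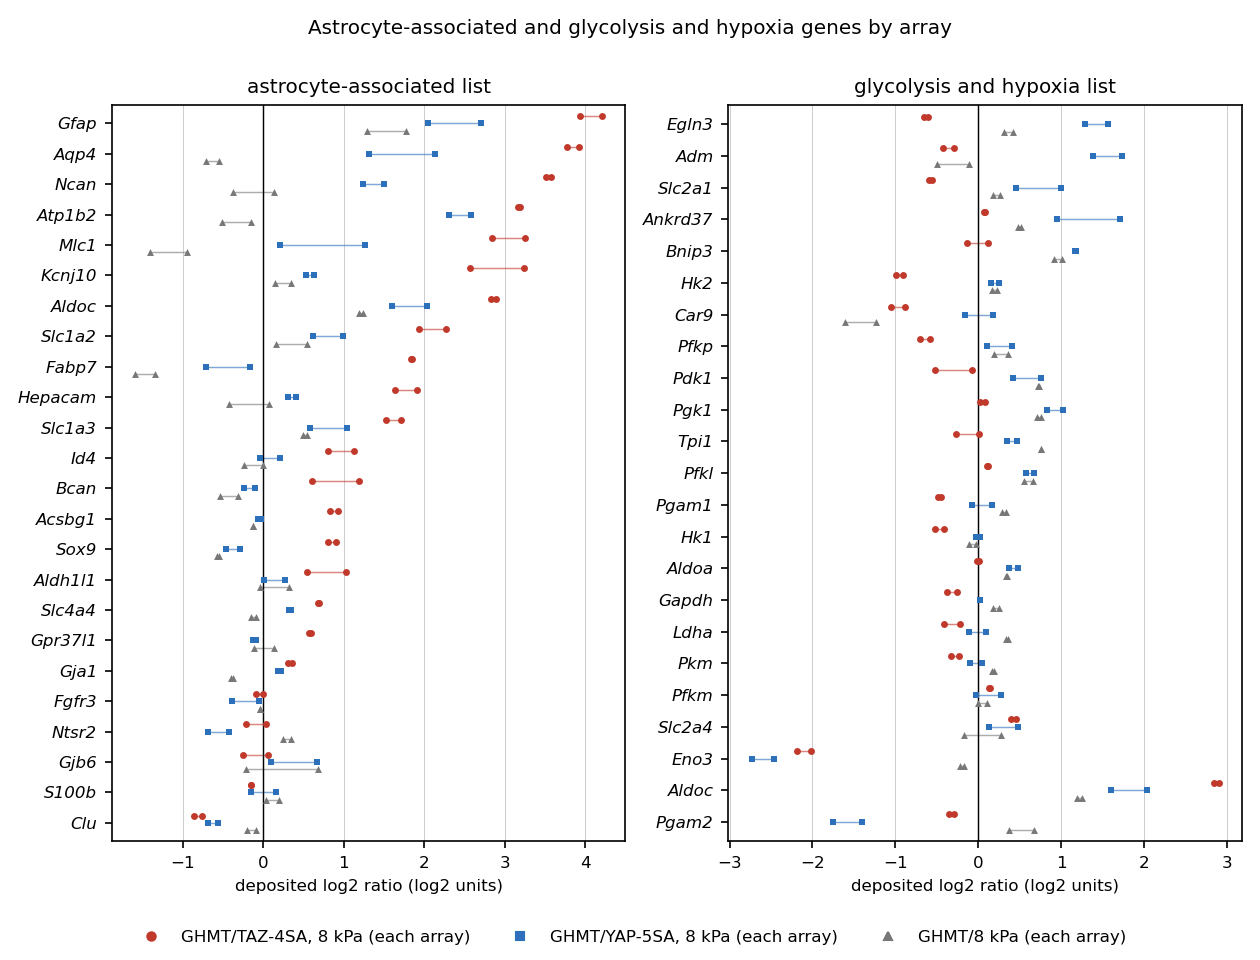
Deposited log2 ratio (horizontal axis, log2 units) of the astrocyte-associated list (left, ordered by the mean in GHMT/TAZ-4SA) and the glycolysis and hypoxia list (right, ordered by the difference between the mutants), with each array of GHMT/TAZ-4SA (circles), GHMT/YAP-5SA (squares) and GHMT/8 kPa (triangles). TAZ-4SA arrays lie furthest right for Gfap (3.93 and 4.21) and left of both other groups for Egln3 (-0.61 and -0.65).

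Among other genes lower in GHMT/TAZ-4SA, Vnn1, the pantetheinase vanin 1, differed by -3.26 (SE 0.25, adjusted p = 0.00994 from limma), with -2.64 and -2.67 in GHMT/TAZ-4SA and 0.20 and 0.99 in GHMT/YAP-5SA. Ptgs2, cyclooxygenase 2, had -3.02 and -3.11 in GHMT/TAZ-4SA and -0.57 and -0.56 in GHMT/YAP-5SA (-2.50, SE 0.14, adjusted p = 0.00659 from limma). Upk1b, a uroplakin of surface epithelia, had -3.18 and -3.23 in GHMT/TAZ-4SA and -0.64 and -0.15 in GHMT/YAP-5SA. The difference was -1.31 for Des (SE 0.15, adjusted p = 0.024 from limma) and, for Fabp4, the adipocyte fatty acid binding protein, -1.54 (SE 0.17, adjusted p = 0.0219 from limma).

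Set beside GHMT/8 kPa by direction, 6866 named features were above 0 in both groups, 4479 below 0 in both, 4173 above 0 in GHMT/TAZ-4SA and below 0 in GHMT/8 kPa, and 4000 the other way. The groups may share a reference, so these counts are given as a description. Of the 56 features (0.287%) at least 2-fold higher on 8 kPa, 45 were above 0 in GHMT/TAZ-4SA, and 44 were lower there than on 8 kPa. These counts depended on having both GHMT/8 kPa arrays, and with replicate 1 or replicate 2 of GHMT/8 kPa left out they were 111 or 106, 89 or 88, and 96 or 92. Of the 165 (0.845%) at least 2-fold lower on 8 kPa, 134 were below 0 in GHMT/TAZ-4SA and 114 were above their value on 8 kPa. Over all named features, 56.6% were above 0 and 43.4% below 0 in GHMT/TAZ-4SA. The 56 and the 165 were chosen by their GHMT/8 kPa values, so less extreme values in another group follow in part from that choice. In both groups, 15 features were at least 2-fold higher, among them Gfap, Aldoc, Cd34 and Wt1 (means of 1.16 in GHMT/TAZ-4SA and 1.06 in GHMT/8 kPa), a transcription factor of mesothelium, and 73 were at least 2-fold lower, among them many macrophage genes.

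The widest gaps between the means of GHMT/TAZ-4SA and GHMT/8 kPa, as deposited, included the following genes. Egfl6, a secreted matrix protein, was the lowest of all on 8 kPa (-3.46 and -3.70, rank 19518) and was near 0 in GHMT/TAZ-4SA (0.44 and -0.50, rank 12019), where the arrays differed in sign. Sfrp2, a secreted Wnt modulator, had 1.05 and -0.42 in GHMT/TAZ-4SA (rank 3034) and -3.39 and -3.53 in GHMT/8 kPa (rank 19517). In the opposite direction, Krt19, an epithelial keratin, was rank 19486 in GHMT/TAZ-4SA (-3.07 and -2.50) and rank 109 in GHMT/8 kPa (0.85 and 0.92). Slc13a5, a citrate transporter, had -2.99 and -4.13 in GHMT/TAZ-4SA and -0.04 and -0.06 in GHMT/8 kPa, and Erv3, an endogenous retroviral sequence, had -3.86 and -4.01 in GHMT/TAZ-4SA and -0.08 and -0.04 in GHMT/8 kPa. If the mutant arrays share the GHMT/126 kPa reference, the differences in mean of GHMT/TAZ-4SA minus GHMT/8 kPa would be 4.48 for Aqp4, 3.78 for Sfrp2, -4.23 for Mmp12 and -3.75 for Nppa, and 287 features would lie above and 395 below GHMT/8 kPa by 2-fold or more with groups that do not overlap. These differences were not tested.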

How the data were processed

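RNA of 14 cultures (7 groups, 2 arrays each) was measured on Clariom S Mouse arrays. The deposited values are log2 ratios, which the authors gave in 3 sets. The submitters' processing notes name Affymetrix Expression Console 1.4, and the normalization and the reference of each set are not given in the sources used here. A ratio carries no signal level, so no filter on dim features was possible, and precision is set by how few arrays there are. The files name probe set IDs, and symbols came from the platform annotation. Members and gene lists (31 lists, 588 genes) were chosen with earlier results of these data known, and the astrocyte list (25 genes, 24 measured) was written after the values were seen. List genes without a match were not analysed here.

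Means of the TAZ-4SA arrays were described against 0 without a test. GHMT/TAZ-4SA minus GHMT/YAP-5SA was tested with limma 3.58.1 (R 4.3.3) on the 22127 features with values in all 4 arrays, with moderated statistics and Benjamini-Hochberg adjustment over all of them, at 0.05. The fit was tested on simulated data. Named genes were the reprogramming factors, Yap1, Wwtr1 and the readouts the study names, the 15 highest and 15 lowest features with both arrays past 2-fold (predicted genes and receptor families left out), at most 4 genes per list, those furthest from 0 in mean, the 10 largest differences between the mutants in each direction, and the 5 widest gaps to GHMT/8 kPa in each direction. Other list members were named after their values were seen. Alternatives were centring each array, leaving out each array, a replicate block, a fit to all 14 arrays, robust moderation and single-symbol features only. Upstream windows (250 bases) came from RefSeq promoters of GRCm38.p6. Python 3.11.15 was used for the rest.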

Additional observations from a re-analysis of the deposited data

Results flagged for a closer look

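The genes below differed between GHMT/TAZ-4SA and GHMT/YAP-5SA by the limma test of the difference itself, with groups that did not overlap. All values are log2 differences in mean, GHMT/TAZ-4SA minus GHMT/YAP-5SA, over 2 arrays a group.

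Those higher in GHMT/TAZ-4SA included 3 genes of the sarcomere list, with 2.50 for Myl7, 2.46 for Myh6 and 1.34 for Actn2. Among the others were Kcnj10 (2.32), Mlc1 (2.30), Fabp7 (2.28) and Lrrtm4 (2.27), the last encoding a synaptic adhesion protein. Epyc (3.08) and Ecm2 (2.29), which encode matrix proteins, and Car3 (3.50) and Apod (2.46) completed the set.

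Of those lower in GHMT/TAZ-4SA, Egln3 (-2.05) belongs to the glycolysis and hypoxia list. Slc2a3, a glucose transporter gene, differed by -2.73, Eno2, an enolase gene, by -2.17, Pygl, the liver glycogen phosphorylase gene, by -2.03 and Ero1a, an oxidase of the endoplasmic reticulum, by -2.22. The others were Vnn1 (-3.26), Upk1b (-2.81), Hsd3b6 (-2.61), a steroid dehydrogenase gene, Ptgs2 (-2.50) and Slc6a12 (-2.32), which encodes a betaine transporter.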

How the results depend on the processing

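No result turned its direction past a test. Leaving out each array gave between 68 and 416 features higher and between 75 and 465 lower in GHMT/TAZ-4SA than in GHMT/YAP-5SA with limma, and the fit to all 14 arrays gave 244 and 303. The replicate numbers share only a number (correlation of same-numbered deviations 0.148), and with the replicate block the counts were 158 higher and 136 lower. Leaving out an array of GHMT/TAZ-4SA or GHMT/8 kPa gave between 56 and 111 features at least 2-fold higher on 8 kPa, of which between 43 and 89 were above 0 in GHMT/TAZ-4SA, between 12 and 22 below 0 and between 43 and 96 below their 8 kPa mean, and between 33 and 51 features 2-fold lower on 8 kPa were above 0 in GHMT/TAZ-4SA.

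With each array centred, the list medians in GHMT/TAZ-4SA were -0.19 (reprogramming factors), -0.020 (YAP, TAZ and TEAD), -1.21 (sarcomere), 0.043 (fibroblast), -0.030 (TGF-beta), 0.15 (Wnt), -0.046 (growth factors), -0.057 (keratinocyte), -0.081 (neuronal), 0.077 (cell cycle), -0.11 (cell cycle inhibitors), -0.26 (fatty acid oxidation) and -0.44 (respiration). From single TAZ-4SA arrays the medians ran between 0.047 and 0.089 (YAP, TAZ and TEAD), -0.13 and -0.063 (Hippo), -0.33 and -0.26 (targets), -1.21 and -1.18 (sarcomere), -0.15 and -0.080 (calcium handling), -0.38 and -0.30 (smooth muscle), 0.45 and 0.60 (collagens), 0.14 and 0.31 (other matrix), -0.14 and -0.067 (proteases), 0.087 and 0.13 (fibroblast), 0.0098 and 0.027 (TGF-beta), 0.13 and 0.13 (Wnt), -0.048 and 0.0029 (growth factors), 0.099 and 0.21 (endothelial), -0.12 and 0.083 (adipocyte), 0.29 and 0.72 (cartilage), 0.043 and 0.096 (keratinocyte), -0.11 and -0.079 (neuronal), -0.034 and 0.018 (cell cycle inhibitors), -0.36 and -0.30 (cholesterol) and -0.23 and 0.076 (interferon). The sign of the median turned in at least 1 setting for cardiac transcription factors and hormones (0.081 without replicate 2 of GHMT/TAZ-4SA), integrins (0.021 without it), YAP, TAZ and TEAD, TGF-beta, growth factors, adipocyte, keratinocyte, cell cycle inhibitors and interferon genes. The cause was not tested.

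Of 168 named features, the difference between the mutants lost its call in 1 with all 14 arrays, in 2 without replicate 1 and in 6 without replicate 2 of GHMT/TAZ-4SA. It gained one in 20 without replicate 1 and in 9 without replicate 2 of GHMT/YAP-5SA, in 1 and 3 without replicates 1 and 2 of GHMT/TAZ-4SA, in 14 with all 14 arrays, in 4 with the replicate block, and in 1 each after centring and with single-symbol features only. Besides those given above, these were Wnt11 (adjusted p = 0.0748 and 0.123 from limma without replicates 1 and 2) and Trp63 (0.0908 without replicate 2). The mean in GHMT/TAZ-4SA moved by more than the spread of its arrays in 40 of the 168 after centring.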

Other observations

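Some other gene groups in GHMT/TAZ-4SA have not been described. Of 14 endothelial features, 10 were above 0, led by the VEGF receptor genes Kdr, with 1.82 and 1.53 in GHMT/TAZ-4SA, 2.98 and 2.34 in GHMT/YAP-5SA and 0.71 and 1.06 in GHMT/8 kPa, and Flt1, with 1.23 and 0.93 in GHMT/TAZ-4SA, while Pecam1 had 0.58 and 0.42 and Plvap -0.09 and -0.51. Of 13 cartilage and bone features, 11 were above 0, among them the cartilage collagen genes Col2a1 (1.19 and 0.59) and Col9a1 (0.95 and 0.61). Col10a1, the collagen of hypertrophic cartilage, was low (-2.08 and -2.12). Over all named features, 56.6% were above 0. Ibsp, which encodes bone sialoprotein, had 4.43 in 1 TAZ-4SA array and -0.44 in the other, against -0.24 and 0.05 in GHMT/YAP-5SA, so its mean rests on a single culture.

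Among epithelial genes, Trp63 (-1.70 and -1.49), Krt18 (-1.48 and -1.19) and Krt19 were at least 2-fold below the reference in GHMT/TAZ-4SA, while Krt5 had 0.62 and 0.68. The interferon-stimulated list had a median of -0.01, with Usp18 at -1.32 and -1.32 and Bst2 at -1.08 and -1.18 in GHMT/TAZ-4SA. Of 23 chemokine and inflammatory features, 17 were below 0 and 4 at least 2-fold, led by Ptgs2 and Ccl9 (-2.37 and -2.55), and Lcn2, lipocalin 2, was highest (1.15 and 0.67 in GHMT/TAZ-4SA, 1.71 and 2.45 in GHMT/YAP-5SA). Of 11 adipocyte features, 7 were above 0 (median 0.12) and 2 at least 2-fold lower, Fabp4 and Adipoq (-1.16 and -1.03). Over all named features, 56.6% were above 0, 43.4% below 0 and 2.08% at least 2-fold lower.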
